A study of Mus musculus with 6 samples.

Results

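Interferon-stimulated genes encode the proteins with which a cell resists viruses and other intracellular pathogens, and their regulators sense foreign nucleic acid and carry the interferon signal to the nucleus. A list of 51 such mouse genes was followed through 1 comparison, cells starved for 6 h against cells in normal medium. Its members were the probe sets that the annotation of the array platform assigns to the listed genes by current or older symbol. Of the 51 genes, 43 had a probe set of their own and 1, Ifi27, was represented by Ifi27l2a, the gene that carried that symbol before, so that 44 of the 12393 genes measured were described. The probe sets of Isg15 and Tgtp1 are each shared with a near-identical gene and were kept out of the counts, and Ddx58, Ifi44, Xaf1, Samd9l and Herc6 were not analysed here.

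Biotin-labelled material from total RNA was measured on 6 Affymetrix mouse arrays, 3 for starved and 3 for control cells of a cultured mouse line named PPP3R1. Calcineurin, a phosphatase, has a regulatory subunit of that same symbol. How the line was made, whether it is 1 clone and what the starvation medium held are not stated in the labels. Titles and design name PPP3R1 cells in normal medium as the control, while the growth and treatment protocols name wild-type MEFs, which are mouse embryonic fibroblasts, so starvation and a difference of cell line cannot be told apart by the labels alone. Arrays of a group are named biological replicates, but separate cultures are not mentioned. The p-values therefore reflect only how far these particular samples spread, which may be technical. No label gives a batch, so batch and group cannot be told apart.

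When a cell detects viral RNA or DNA, its sensors signal through adaptors and kinases to the transcription factor Irf3, which switches on type I interferon. Secreted interferon binds the receptor formed by Ifnar1 and Ifnar2, and a complex of Stat2, Irf9 and a further STAT protein then enters the nucleus and binds the interferon-stimulated response element, ISRE, of its target genes. Fibroblasts are a classical source of interferon beta and respond to it themselves, and in most cells a low level of signalling keeps these genes measurable without infection. Interferon gamma uses a separate receptor and acts through the GAS element, and Irf1 and the p47 and p65 families of GTPases belong to its typical targets.

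In starved cells 36 of the 44 members were higher and 2 were lower by an adjusted p of 0.05 in limma, and 6 did not pass. The members' median change was 0.73 on the log2 scale (1.66-fold), against -0.01 over all genes. Over all genes 40.8% passed, 20.8% higher and 20.1% lower, and over all probe sets 39.5% passed, so a call by itself was common in this comparison. The same 36 genes had all 3 starved arrays above all 3 control arrays, as had 26.3% of all genes, and the same 2 had all starved arrays below, as had 26.2%. A rise of at least 1 that also passed was found in 10 members against 1.71% of all genes, and a fall of that size in 1 member against 1.5%. Changes of the members called higher ran from 0.25 for Irf9 to 2.77 for Cxcl10.

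Values below are log2 RMA values, a scale without a natural zero on which a step of 1 is a doubling. Each gene is represented by the probe set that was brightest over all 6 arrays, changes are starved minus control ± the limma standard error, and each group had n = 3. Levels of different genes are not comparable on this scale, since probe sets differ in brightness. In bulk RNA, a larger share of responding cells and more RNA per cell cannot be told apart.

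**Figure D1:**
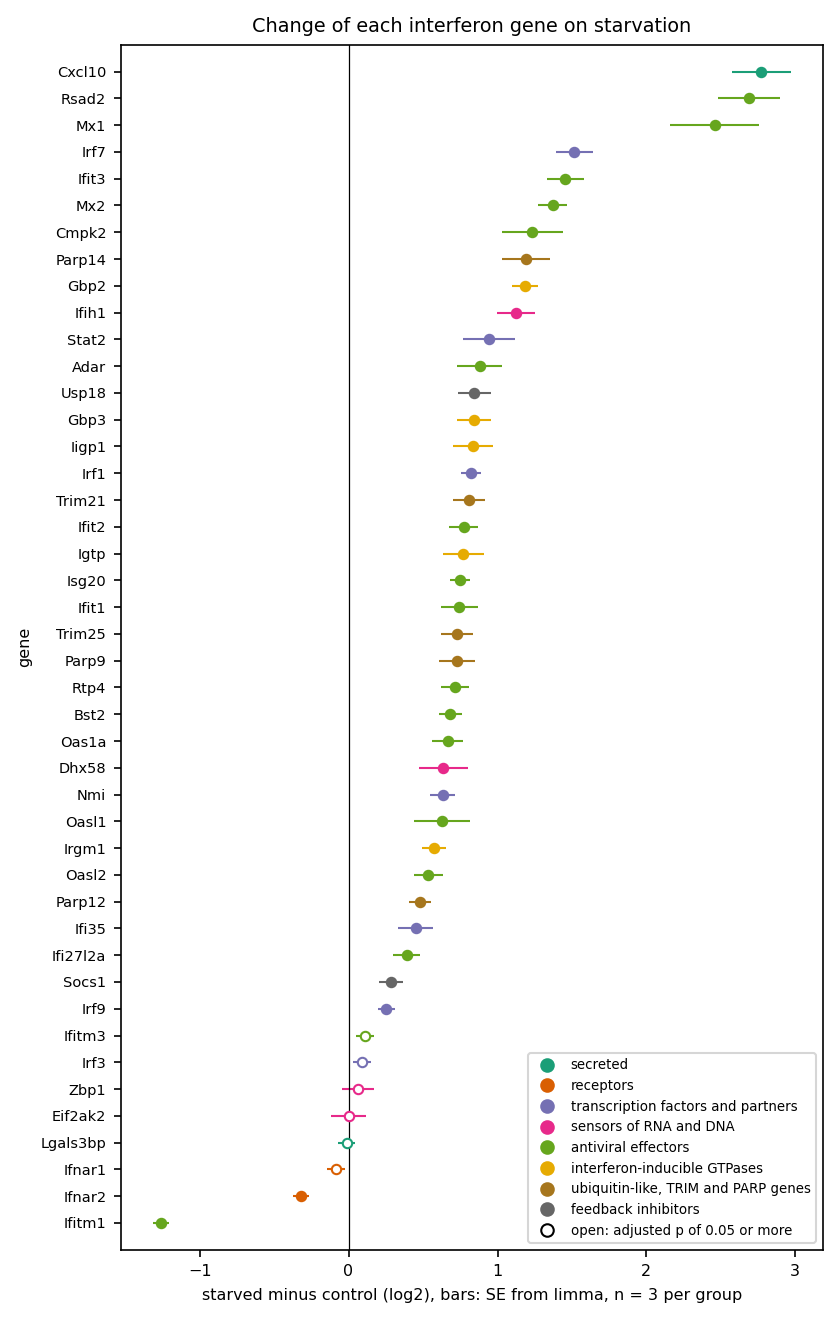
Change of each of the 44 interferon genes (starved minus control, log2, horizontal axis), with bars for the standard error from limma at n = 3 per group. Colours give the role and open points an adjusted p of 0.05 or more; 36 genes lie to the right of 0 as filled points, and Ifnar2 and Ifitm1 lie to its left.

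The upstream sequences of 5 genes are printed, chosen by size of change or by level, and neither member called lower is among them. Cxcl10, Rsad2, Irf7 and Ifit3 had the largest changes among the members with a promoter entry, and Ifitm3 had the highest level among those that did not pass. Each is the 250 bases before the RefSeq transcription start on the gene's own strand, build GRCm38.p6, 5′ to 3′. Capitals mark a match to the ISRE core, GAAA and GAAA with any NN between them, on either strand, and no match to the GAS core TTCNNNGAA fell in these 5 windows. They lie at chr5:92348890-92349139 (minus strand) for Cxcl10, chr12:26456453-26456702 (minus) for Rsad2, chr7:141266425-141266674 (minus) for Irf7, chr19:34583279-34583528 (plus) for Ifit3 and chr7:141010745-141010994 (minus) for Ifitm3.
Cxcl10: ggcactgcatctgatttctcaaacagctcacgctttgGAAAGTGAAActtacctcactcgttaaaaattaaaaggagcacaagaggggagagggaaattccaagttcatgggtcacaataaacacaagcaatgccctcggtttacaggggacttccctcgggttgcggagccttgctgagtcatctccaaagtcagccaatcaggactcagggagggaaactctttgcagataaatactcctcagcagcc
Rsad2: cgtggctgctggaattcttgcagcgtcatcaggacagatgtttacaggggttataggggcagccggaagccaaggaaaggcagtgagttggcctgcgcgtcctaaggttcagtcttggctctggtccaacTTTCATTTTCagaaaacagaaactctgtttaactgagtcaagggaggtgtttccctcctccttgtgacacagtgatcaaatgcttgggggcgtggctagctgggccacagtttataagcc
Irf7: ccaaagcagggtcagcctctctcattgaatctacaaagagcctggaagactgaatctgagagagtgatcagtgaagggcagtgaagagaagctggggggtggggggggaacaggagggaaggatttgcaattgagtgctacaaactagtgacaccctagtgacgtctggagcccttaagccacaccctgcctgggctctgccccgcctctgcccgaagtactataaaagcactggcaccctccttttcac
Ifit3: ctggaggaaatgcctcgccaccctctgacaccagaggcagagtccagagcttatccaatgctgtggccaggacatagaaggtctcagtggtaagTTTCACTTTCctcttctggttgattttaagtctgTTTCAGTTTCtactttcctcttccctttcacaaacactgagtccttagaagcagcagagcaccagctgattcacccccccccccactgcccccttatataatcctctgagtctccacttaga
Ifitm3: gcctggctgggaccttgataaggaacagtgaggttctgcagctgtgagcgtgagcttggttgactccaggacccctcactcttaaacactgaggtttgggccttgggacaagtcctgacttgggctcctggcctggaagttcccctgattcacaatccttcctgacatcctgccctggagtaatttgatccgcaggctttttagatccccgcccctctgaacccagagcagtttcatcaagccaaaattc

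The Cxcl10 match begins 213 bases before the start, the Rsad2 match 120, and Ifit3 has a pair of matches that begin 156 and 122 bases before it. The windows printed for Irf7 and Ifitm3 hold neither core, which says only that these letters are not in them. Promoter entries were found for 34 of the 44 measured members. An ISRE core lay within 250 bases of a start in 12 of these 34 genes (35.3%), against 3.46% of the 27025 genes in the RefSeq table. All 12 were among the 27 members called higher that had an entry: Bst2, Cxcl10, Gbp2, Gbp3, Ifit1, Ifit3, Igtp, Irgm1, Oas1a, Rsad2, Socs1 and Stat2. None of the 7 members with an entry that were not called higher held it, namely Eif2ak2, Ifitm1, Ifitm3, Ifnar1, Ifnar2, Irf3 and Lgals3bp. The median change was 0.81 in the 12 with a match and 0.58 in the 22 without. Their ranges overlapped (0.29 to 2.77 and -1.26 to 1.52). The 22 include the 7 not called higher, so this difference repeats the split by call and gives no measure of the match by itself. Those 7 include the receptor genes Ifnar1 and Ifnar2 and the factor gene Irf3, so call and role in the list are not separated here. A GAS core was found in 8 of the 34 (23.5%, against 8.13% of all genes). It lay in 6 of the 27 called higher (22.2%), among them Irf1, Igtp and Isg20. It also lay in 2 of the 7 not called higher (28.6%), namely Ifnar2, which was lower, and Eif2ak2, which did not pass. The members were listed as interferon-stimulated genes and their regulators, so the list itself favours a share of these cores above that of all genes. These counts describe letters in a window and were not tested.

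Among secreted products Cxcl10 had the largest change of all 44 genes. Cxcl10 encodes a chemokine that draws activated T cells to sites of infection. Its control values were 8.02, 7.32 and 7.81 and its starved values 10.18, 10.53 and 10.75, each in the order of replicates 1, 2 and 3, which is kept throughout. Every starved array stood more than 2 above every control array, with a smallest gap of 2.16, and the group means moved from 7.72 ± 0.36 (SD, n = 3) to 10.49 ± 0.29 (SD, n = 3). The rise of 2.77 ± 0.20 was 6.83-fold (limma adjusted p = 2.97e-05). Lgals3bp, which encodes a secreted glycoprotein that binds galectins, was at 11.58, 11.57 and 11.67 in control and 11.62, 11.54 and 11.63 in starved cells. Its groups overlapped (-0.01 ± 0.06, limma adjusted p = 0.892).

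Neither receptor gene was called higher. Ifnar2, the chain that binds interferon most tightly, was at 10.68, 10.74 and 10.68 in control and 10.42, 10.36 and 10.37 in starved cells. All starved arrays lay below all control arrays, and it fell by 0.32 ± 0.05 (limma adjusted p = 0.00205). Its dimmer probe set differed by -0.13 without passing. Ifnar1 was at 9.24, 9.15 and 9.29 in control and 9.18, 9.10 and 9.15 in starved cells, with overlapping groups and a difference of -0.08 ± 0.06 (limma adjusted p = 0.323).

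Of 7 transcription factor genes and partners 6 rose. Irf7, the factor that amplifies interferon production after a first signal, was at 8.82, 8.60 and 9.08 in control and 10.28, 10.28 and 10.49 in starved cells, a rise of 1.52 ± 0.12 (2.86-fold, limma adjusted p = 5.39e-05). Irf1, which responds strongly to interferon gamma, was very even in control at 9.62, 9.64 and 9.66 and stood at 10.35, 10.47 and 10.57 in starved cells (0.82 ± 0.07, limma adjusted p = 5.88e-05). The smallest gap between groups was 1.19 for Irf7 and 0.69 for Irf1. Of the complex that carries the type I signal, Stat2 was at 8.35, 7.997 and 8.45 in control and at 8.96, 9.09 and 9.57 in starved cells. Its rise of 0.94 ± 0.17 passed (limma adjusted p = 0.00331), and its dimmer probe set gave the same 0.94. Irf9, the DNA-binding part of that complex, was at 9.16, 9.22 and 9.12 and then at 9.46, 9.36 and 9.45. That rise of 0.25 ± 0.06 passed too (limma adjusted p = 0.00917) and was the smallest among the members called higher.

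Nmi and Ifi35 encode interferon-induced proteins that bind each other, and Nmi also binds STAT proteins. Nmi was at 8.84, 8.81 and 9.00 in control and 9.40, 9.48 and 9.67 in starved cells (0.63 ± 0.09, limma adjusted p = 0.000728). Ifi35 was at 9.59, 9.63 and 9.82 and then at 9.95, 10.06 and 10.39 (0.45 ± 0.12, limma adjusted p = 0.0178). The smallest gap between the groups was 0.12 for Ifi35, and its call was lost without control replicate 1 (0.40, limma adjusted p = 0.0627) and without control replicate 2 (0.42, limma adjusted p = 0.0578). Irf3, which is made at all times and activated by phosphorylation, was at 8.73, 8.65 and 8.71 in control and 8.72, 8.85 and 8.78 in starved cells. Its brightest probe set did not pass (0.09 ± 0.06, limma adjusted p = 0.268). Of its other 3 probe sets only the dimmest, at a mean level of 4.74, was called higher (0.51), and the mean of all 4 passed (0.22, limma adjusted p = 0.0112).

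Among 4 sensor genes measured, those of the RNA helicases rose. Ifih1, which encodes the long double-stranded RNA sensor MDA5, was at 9.42, 9.32 and 9.55 in control and 10.33, 10.50 and 10.83 in starved cells. All starved arrays were higher, and the rise was 1.13 ± 0.13 (2.18-fold, limma adjusted p = 0.000262). Dhx58, whose product LGP2 assists MDA5, was at 7.78, 7.68 and 7.94 and then at 8.15, 8.32 and 8.83 (0.64 ± 0.16, limma adjusted p = 0.0164). This call was lost without control replicate 1 (0.62, limma adjusted p = 0.0502) and without control replicate 2 (0.58, limma adjusted p = 0.0573). It was also lost in the mean of its 3 probe sets (0.38, limma adjusted p = 0.0718), of which the dimmest lay at 4.06.

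Eif2ak2, which encodes the RNA-activated kinase PKR that halts translation, was at 9.21, 9.38 and 9.55 in control and 9.21, 9.34 and 9.60 in starved cells. The groups covered the same range in this probe set (0.00 ± 0.12, limma adjusted p = 0.999). In its dimmer probe set, at a mean level of 8.99, all starved arrays were above all control arrays by 0.33, short of the threshold (limma adjusted p = 0.0785). Zbp1, the sensor of Z-form nucleic acid, was at 8.30, 8.27 and 8.48 and at 8.30, 8.29 and 8.64 (0.06 ± 0.11, limma adjusted p = 0.698), and its dimmer probe set differed by 0.42 without passing (limma adjusted p = 0.110). For both genes the probe sets gave different sizes, so no single value describes them.

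Antiviral effectors were the largest role, with 15 of 17 measured genes called higher and 1 lower. Rsad2 encodes viperin, which makes a chain-terminating nucleotide from CTP. It was at 8.55, 7.96 and 8.56 in control and 10.71, 11.03 and 11.39 in starved cells, with a rise of 2.69 ± 0.21 (6.44-fold, limma adjusted p = 4.16e-05). Its other probe sets rose by 3.07 and 3.15. Cmpk2, the neighbour of Rsad2 on chromosome 12 and a mitochondrial nucleotide kinase, was even in control (6.51, 6.50 and 6.59) and uneven in starved cells (7.61, 7.38 and 8.31). It rose by 1.23 ± 0.21 in this probe set and by 1.95 in its dimmer one (limma adjusted p = 0.00208 and 9.69e-05). The dimmer one was less even in control, at 6.28, 5.78 and 6.15, and stood at 7.82, 7.85 and 8.39 in starved cells.

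Mx1 and Mx2 encode dynamin-like GTPases that block incoming viruses. Mx1 was at 5.86, 4.76 and 5.93 in control and 7.65, 8.11 and 8.17 in starved cells. Control replicate 2 was the only value of any of the 44 genes under 5, the level used here as a limit for dim probe sets, and without that array the rise of 2.46 ± 0.30 (5.50-fold, limma adjusted p = 0.000406) became 2.08. Mx2 was at 7.53, 7.33 and 7.45 and then at 8.70, 8.72 and 9.00, a rise of 1.37 ± 0.10 (2.58-fold, limma adjusted p = 2.72e-05), the lowest adjusted p among the members called higher.

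Ifit1 encodes a protein that binds foreign RNA ends, and Ifit2 and Ifit3 encode relatives of it. Ifit3 was at 11.72, 11.48 and 11.86 in control and 12.96, 13.11 and 13.36 in starved cells, a rise of 1.46 ± 0.13 (2.74-fold, limma adjusted p = 7.41e-05). Ifit1 rose by 0.74 ± 0.12 and Ifit2, the neighbour of Ifit3 on chromosome 19, by 0.77 ± 0.10 (limma adjusted p = 0.00204 and 0.000493). All 3 had every starved array above every control array, with smallest gaps of 1.09 for Ifit3, 0.39 for Ifit1 and 0.56 for Ifit2. Bst2, which encodes the tetherin that holds budding virions at the cell surface, was at 11.69, 11.79 and 11.94 and then at 12.54, 12.41 and 12.53 (0.68 ± 0.08, limma adjusted p = 0.000289).

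The other effector genes called higher rose by 0.39 to 0.88. Adar, the adenosine deaminase that edits double-stranded RNA, rose by 0.88 ± 0.15 and the exonuclease gene Isg20 by 0.75 ± 0.07 (limma adjusted p = 0.00227 and 9.30e-05). Oas1a, which encodes a synthetase of the oligoadenylates that activate an RNase, rose by 0.66 ± 0.10 (limma adjusted p = 0.00145). Its relatives Oasl2 and Oasl1, which neighbour each other on chromosome 5, rose by 0.54 ± 0.10 and 0.63 ± 0.19 (limma adjusted p = 0.00296 and 0.0298). The OAS genes are related in sequence, and how far their probe sets share signal is not shown by the files. Oasl1 was the least separated member called higher, at 6.47, 5.96 and 6.66 against 6.73, 7.02 and 7.21, with a gap of 0.07. Leaving out a single array other than control replicate 3 or starved replicate 1 ended its call (limma adjusted p from 0.0541 to 0.0911). Rtp4 rose by 0.72 ± 0.09 and Ifi27l2a, which encodes a small membrane protein, by 0.39 ± 0.09 (limma adjusted p = 0.000563 and 0.0112).

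Ifitm1 went against the other effectors. Ifitm proteins sit in membranes and hinder the fusion of entering viruses. Ifitm1 was at 9.39, 9.39 and 9.38 in control and at 8.06, 8.16 and 8.17 in starved cells, where it fell by 1.26 ± 0.06 (limma adjusted p = 4.31e-06). The groups were 1.33 apart, and this was the lowest adjusted p among all 44 members. Ifitm3, its neighbour on chromosome 7, was at 12.90, 13.00 and 12.93 and at 13.11, 12.98 and 13.06, with overlapping groups (0.11 ± 0.06, limma adjusted p = 0.206).

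All 5 measured GTPases of the families that attack pathogen-containing vacuoles rose. Gbp2 was at 9.22, 9.24 and 9.22 in control and 10.36, 10.28 and 10.60 in starved cells, a rise of 1.19 ± 0.09 (2.28-fold, limma adjusted p = 3.32e-05), and its dimmer probe set rose by 1.20. Gbp3, on the same chromosome, was at 9.58, 9.41 and 9.56 and then at 10.25, 10.21 and 10.63 (0.84 ± 0.11, limma adjusted p = 0.000679). The GBP genes are closely related in sequence, and the brightest Gbp2 probe set carries the suffix that marks possible matches to other transcripts. Iigp1 was at 11.05, 10.85 and 11.20 in control and 11.63, 11.84 and 12.12 in starved cells (0.83 ± 0.13, limma adjusted p = 0.00165). Igtp was at 10.54, 10.36 and 10.60 and then at 11.01, 11.23 and 11.58 (0.77 ± 0.14, limma adjusted p = 0.00287). Irgm1, which regulates the other GTPases of its family, was the most even in control (10.03, 10.04 and 10.07 against 10.56, 10.52 and 10.78) among these 3 and rose by 0.57 ± 0.08 (limma adjusted p = 0.000695). The probe set shared by Tgtp1 and Tgtp2 read 11.55, 11.44 and 11.67 in control and 11.89, 12.08 and 12.44 in starved cells and rose by 0.58 (limma adjusted p = 0.0101), which cannot be assigned to either gene.

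The ubiquitin ligase genes Trim21 and Trim25 and 3 genes for ADP-ribosyl transferases also rose, 5 of 5 in this role. Parp14 was at 7.35, 7.18 and 7.62 in control and 8.30, 8.54 and 8.89 in starved cells (1.19 ± 0.16, limma adjusted p = 0.000682). Parp9 was at 10.12, 9.97 and 10.18 and then at 10.62, 10.74 and 11.09 (0.73 ± 0.12, limma adjusted p = 0.00194). Parp12 was at 9.71, 9.64 and 9.77 and then at 10.13, 10.10 and 10.32 (0.48 ± 0.07, limma adjusted p = 0.00137). Trim21, a cytosolic receptor for antibody-coated virus, was at 8.42, 8.25 and 8.40 and then at 8.97, 9.14 and 9.38 (0.81 ± 0.11, limma adjusted p = 0.000621). Trim25, which helps to activate RNA sensing, was at 11.00, 10.89 and 11.06 and then at 11.50, 11.70 and 11.94 (0.73 ± 0.11, limma adjusted p = 0.00113), and its other probe sets rose by 0.66 and 0.29. All 5 genes had starved and control arrays apart. The probe set shared by Isg15, the ubiquitin-like modifier, and the pseudogene symbol Gm9706 read 10.46, 10.31 and 10.72 in control and 11.16, 11.21 and 11.72 in starved cells (0.86, limma adjusted p = 0.00352), again without an assignment to 1 gene.

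Both feedback inhibitors were called higher. Usp18, which removes Isg15 from proteins and silences the receptor at Ifnar2, was at 11.41, 11.28 and 11.54 in control and 12.07, 12.21 and 12.47 in starved cells, a rise of 0.85 ± 0.11 (limma adjusted p = 0.000632). Socs1, an inhibitor of the JAK kinases, was at 6.52, 6.25 and 6.46 and then at 6.64, 6.77 and 6.68. Its rise of 0.29 ± 0.08 (limma adjusted p = 0.0235) left a gap of 0.12 between the groups. The Socs1 call was lost without control replicate 2 (0.21, limma adjusted p = 0.0597), without starved replicate 2 (0.25, limma adjusted p = 0.0780) and without starved replicate 3 (0.29, limma adjusted p = 0.0548).

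**Figure D2:**
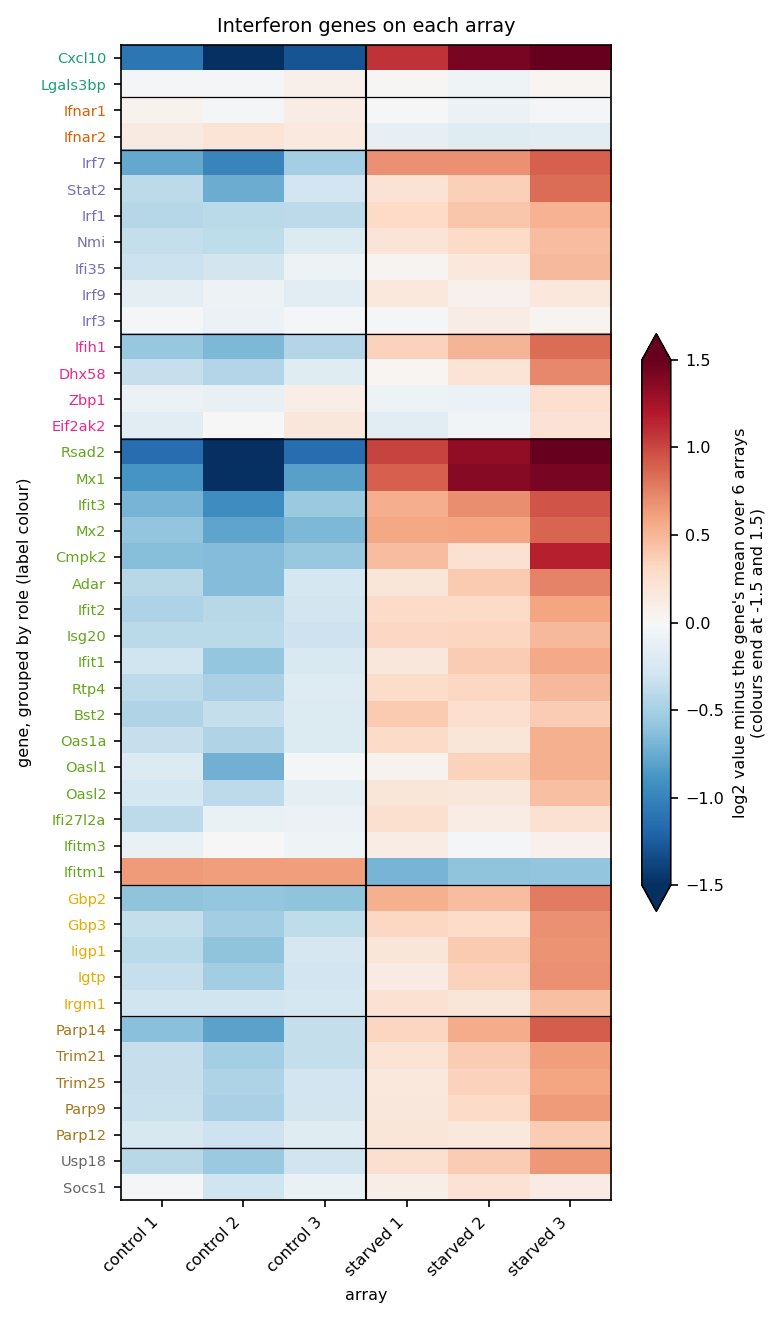
Log2 value of each interferon gene on each of the 6 arrays, minus the gene's mean over all arrays, in colour. Rows are genes grouped by role and columns are arrays; the column of control replicate 2 is the darkest blue and that of starved replicate 3 the darkest red for most genes, while Ifitm1 and Ifnar2 run the other way.

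The replicates were uneven in the same arrays for most members. Averaged over the 44 genes, control arrays deviated from each gene's mean by -0.36, -0.50 and -0.27. The starved arrays deviated by 0.24, 0.32 and 0.56. Over all genes the same averages lay between -0.01 and 0.01. Control replicate 2 was the lowest control array and starved replicate 3 the highest starved array in this average, without either group reaching the other. Among the members, starved replicate 3 held the highest starved value in 36 of 44 (81.8%), against 33.7% of all genes. Control replicate 2 held the lowest control value in 31 (70.5%), against 35.9% of all genes, and both were true of 28 (63.6%), against 12.8%.

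The members varied more within groups than the typical gene did. Their median residual SD was 0.16, compared with 0.09 over all genes. Among genes called higher it was 0.17 in the members and 0.07 over all genes, where a small SD itself favours a call. The median excess of starved replicate 3 over the mean of starved replicates 1 and 2 was 0.30 in the members and 0.00 over all genes. It was largest in Cmpk2 (0.82), Dhx58 (0.60), Stat2 (0.55) and Rsad2 (0.51). Control replicate 2 lay furthest below the mean of the other control arrays in Mx1 (-1.13), Oasl1 (-0.61), Rsad2 (-0.60) and Cxcl10 (-0.60).

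Some members did not share this order. In their brightest probe sets Gbp2, Irgm1 and Irf1 had control ranges of 0.02, 0.04 and 0.04, and starved replicate 3 was still their highest array. The dimmer Gbp2 probe set did share the order, at 9.19, 9.00 and 9.17 in control and 10.25, 10.21 and 10.52 in starved cells. Among the other GTPase genes, Gbp3, Igtp and Iigp1 did have control replicate 2 lowest and starved replicate 3 highest, with control ranges of 0.17, 0.24 and 0.35. Irf9, Bst2, Ifi27l2a and Socs1 rose while another array was the highest starved one. Eif2ak2 and Zbp1, which did not pass, had starved replicate 3 above the mean of the other starved arrays by 0.32 and 0.34 in their brightest probe sets. The source of this unevenness was not tested.

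**Figure D3:**
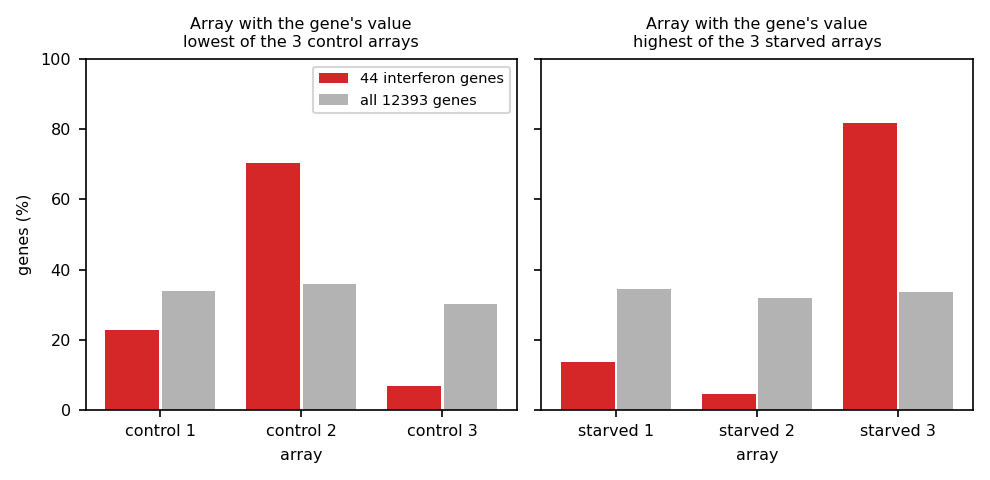
Share of genes (%, vertical axis) whose lowest control value (left) or highest starved value (right) fell in each array, for the 44 interferon genes (red) and all 12393 genes (grey). Control replicate 2 takes 70.5% and starved replicate 3 takes 81.8% of the interferon genes, while all genes are spread between 30.3% and 35.9%.

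Leaving out either array kept the direction of the comparison. Without starved replicate 3 the members' median change was 0.63, with 34 called higher, and without control replicate 2 it was 0.67, with 32 called higher. The 2 genes called lower were called under each single omission.

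Of 49 other genes of the pathway, 39 were measured by a probe set of their own, 15 were higher and 6 lower, with a median change of 0.06. The count of 15 is 38.5% of those measured, against 20.8% of all genes, and the count of 6 lower is 15.4%, against 20.1%. Ifnb1, which encodes interferon beta, was at 4.13, 4.22 and 4.33 in control and 5.29, 5.25 and 5.58 in starved cells. It moved from below to just above the dim limit of 5, so its rise of 1.15 ± 0.10 (limma adjusted p = 7.51e-05) has a less certain size. The interferon alpha genes Ifna1, Ifna2 and Ifna4 and the interferon gamma gene Ifng lay under 5 on all arrays, and none passed (changes of 0.10, 0.03, 0.08 and 0.01).

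Members of this second list moved in both directions. Tlr3, the endosomal receptor for double-stranded RNA, was at 6.48, 6.39 and 6.62 in control and 7.56, 7.72 and 8.28 in starved cells (1.36 ± 0.17, limma adjusted p = 0.000488). Its other probe set, which has no suffix for several transcripts, did not pass when tested without such probe sets (0.61, limma adjusted p = 0.0573). Samhd1, which depletes the nucleotides that viruses need, was at 8.49, 8.51 and 8.71 and then at 9.70, 9.84 and 9.91 (1.25 ± 0.08, limma adjusted p = 2.26e-05). Mavs, the mitochondrial adaptor of the RNA helicases, rose by 0.64 ± 0.07, Oas1b by 1.01 ± 0.12 and Oas3 by 0.81 ± 0.21 (limma adjusted p = 0.000259, 0.000386 and 0.0171). The Oas3 call was lost without control replicate 1 (limma adjusted p = 0.0617). Sting1, the adaptor of DNA sensing, was at 8.73, 8.80 and 8.75 in control and 8.32, 8.30 and 8.33 in starved cells, where it fell by 0.45 ± 0.05 (limma adjusted p = 0.000358). Traf6, an adaptor ligase of Toll-like receptor signalling, also fell (-0.25 ± 0.06, limma adjusted p = 0.0168), with a different sign when its probe sets were averaged (0.10, limma adjusted p = 0.210). The Traf6 call was also lost without control replicate 1, starved replicate 1 or starved replicate 2 (limma adjusted p from 0.0525 to 0.0550). The sensor genes Tlr4, Tlr7, Tlr9, Aim2 and Ifi204 did not pass. Irf2, an antagonist of Irf1, rose by 0.94 ± 0.06 (limma adjusted p = 2.39e-05).

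Socs3, a feedback inhibitor of cytokine receptors that signal through Stat3, moved the opposite way to Socs1. It was at 9.21, 9.26 and 9.06 in control and 8.22, 7.98 and 8.17 in starved cells, where it fell by 1.05 ± 0.08 (limma adjusted p = 5.10e-05). Among the genes of highest level, the interferon gamma receptor gene Ifngr2 rose by 0.24 ± 0.06 (limma adjusted p = 0.0109). Ifngr1 (0.07 ± 0.06), Stat3 (-0.05 ± 0.06) and the phosphatase gene Ptpn11 (-0.08 ± 0.06) missed the threshold (adjusted p in limma of 0.354, 0.518 and 0.354). Of the 15 called higher, 11 had their highest starved value in starved replicate 3 (73.3%, against 35.5% of all genes called higher). Control replicate 2 held the lowest control value in 7 of the 15 (46.7%, against 42.2%).

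**Figure D4:**
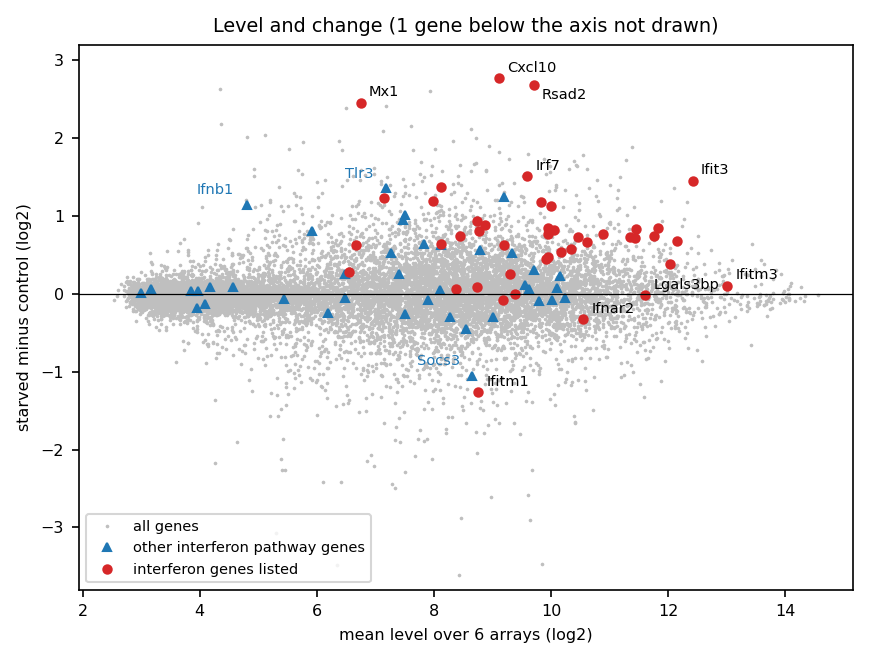
Change (starved minus control, log2, vertical axis) against the mean level over 6 arrays (log2, horizontal axis) for all genes (grey), the 44 interferon genes (red circles) and 39 other pathway genes (blue triangles). Most red circles lie above 0 at levels over 6, Cxcl10, Rsad2 and Mx1 are the highest of them, and Ifnb1 is the blue triangle near a level of 5.

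Across the series, array medians lay between 6.74 and 6.78, and arrays correlated at 0.998 within groups and at 0.986 to 0.988 between groups. The Ppp3r1 gene differed by 0.09 ± 0.05 (limma adjusted p = 0.215). Of 12 fibroblast markers 0 were under 5 on all arrays, and 3 were higher (25%) and 5 lower (41.7%), against 20.8% and 20.1% of all genes. The brightest were Col1a2, which did not pass (14.02 in control and 14.16 in starved cells), and Vim, which rose (13.80 and 14.06). Thy1 was under 5 in both group means (4.80 in control and 4.87 in starved cells), and Fap in that of starved cells (4.33). The largest changes in that list were falls, of Fap (-2.26), Lum (-2.05) and Pdgfrb (-0.81). Of 13 leukocyte markers measured, 2 were higher (15.4%) and 3 lower (23.1%), beside 20.8% and 20.1% of all genes. Of the 13, 6 were under 5 on all arrays, among them Ptprc, the defining gene of the class, at 3.07 and 3.03. The summed linear signal of the 13 ran from 837 to 891 in control and from 772 to 782 in starved cells. It is a sum over probe sets of unequal brightness, of which Cd14 and Cd74, both called lower, are the brightest. Without Cd14 and Cd74 it ran from 359 to 398 in control and from 406 to 411 in starved cells, the opposite direction, and the part of these markers in the interferon gene values was not tested. Both measured dendritic markers, all 4 endothelial and 3 of 4 epithelial markers were under 5 on all arrays. The difference between 3′ and 5′ control probe sets, a sign of RNA degradation, moved by -0.08 for Gapdh and -0.01 for Actb (exact two-sided permutation test, p = 0.10 and 0.70, where 0.10 is the smallest p that 3 against 3 arrays allow).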

How the data were processed

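Per the submitters' processing notes, the authors made the deposited log2 values by RMA (affy), 1 value for each probe set on each array; versions and builds: not given in the sources used here. Quantile normalization in RMA equalises the arrays, so a shared shift of most transcripts would not show, and detection calls were not given. Of 22690 probe sets, 64 controls were set aside and 22626 tested; 20380 carried 1 gene name, 691 several and 1555 none here.

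The test was limma 3.58.1 under R 4.3.3, two-sided and without covariates, moderated by eBayes after lmFit, with Benjamini-Hochberg adjustment over every tested probe set and a threshold of 0.05. It was tested on simulated data. The members and lists were chosen with earlier results of these data known. All members are named. Values on every array are given, per role, for up to 4 called members of largest change and 2 further ones of highest level. Of the other pathway genes, the 8 called with the largest change and 4 bright ones are given. Ifitm1, Cmpk2, Oasl1, Sting1, Traf6, the other sensor genes outside the list, Thy1, Fap, Lum, Pdgfrb and the interferon alpha and gamma genes were singled out after their values were seen. RefSeq promoters of 250 bases were searched in Python 3.11.15, and figures used matplotlib 3.10.9. Alternatives changed filters, scaling, moderation, weights, probe set rules, thresholds, a replicate block and the arrays included; the median over members and the leukocyte sum without its brightest markers were added after seeing the data. The number of arrays limits the precision.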

Additional observations from a re-analysis of the deposited data

How the results depend on the processing

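Of the 38 members called, 33 kept their direction and their call in every alternative that left the threshold and the size of change as they were and had a value for them. The exceptions were Dhx58, Ifi27l2a, Ifi35, Oasl1 and Socs1, and no member reversed. Leaving out each array gave 32 to 36 members higher and 2 lower, a median member change of 0.63 to 0.80, 3949 to 4429 probe sets called higher and 3693 to 3965 probe sets called lower, and 13 to 14 other pathway genes higher and 4 to 6 lower. A minimum change of 1 left 10 members higher and 1 lower, 4 other pathway genes higher and 1 lower, and 354 probe sets higher and 335 lower. When probe sets with possible matches to several transcripts were left out, 31 members had a value and 24 were higher and 1 lower, with 2888 probe sets higher and 2828 lower of 15605. With probe sets averaged per gene 2951 features were higher and 2874 lower of 14639, fewer because fewer were tested. Averaging took Traf6 from -0.25 to 0.10 and Ptpn2 from 0.31 to -0.090, and Ptpn2 was at -0.74 without the several-transcript probe sets. The cause was not tested. Without moderation 31 members were higher, and Ifi27l2a lost its call there (limma fit, adjusted p = 0.0646).

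With the replicate number as a block 35 members were higher and 2 lower, and Socs1 lost its call (limma adjusted p = 0.0552). No sign that the numbers pair the samples was seen. Deviations of same-numbered arrays correlated at -0.09, 0.01 and -0.01, and those of other-numbered arrays at -0.08 to 0.09. With 3 arrays per group this check cannot show that the samples were unpaired. Dim probe sets near 5 have uncertain sizes of change.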
